A study of Homo sapiens with 9 samples.

Results

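The 8 genes described here are those of tissue factor and of plasminogen activation. On the clotting side they are the initiator F3 (tissue factor), its inhibitor TFPI, the related TFPI2 and the thrombin receptor F2R. The others are the plasminogen activators PLAT and PLAU, the urokinase receptor PLAUR and the protease inhibitor SERPINE2. All 8 are among the 60719 genes in the deposited table and among the 13879 genes tested, with at least 21.9 TPM in every library. The list was chosen with results from these libraries known: F3 was chosen on its difference between TIS sEV and Cont sEV, and PLAT on its rank in TIS sEV against No sEV. The other 6 were chosen by their role around F3 and PLAT. Values of the comparisons with TIS sEV are therefore given as a description, and only Cont sEV against No sEV was not used in the choice.

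MDA-MB-231, a human breast cancer cell line labelled WT, was the recipient in all 9 libraries, which form 3 groups of 3 and hold total RNA taken after 72 h in 5% exo-free medium. The No sEV group received no vesicles. The Cont sEV group received small extracellular vesicles (sEV) from MDA-MB-231 donors given DMSO, and the TIS sEV group received sEV from donors given nocodazole at 100 ng/ml for 72 h, both kinds of donor then being released into exo-free medium for 72 h before the vesicles were isolated by differential centrifugation. TIS stands for therapy-induced senescence, the state the series' design text gives these donors. Donor and recipient are the same line, so transcripts carried by the vesicles and transcripts made by the recipient cannot be told apart, and donor senescence and any further action of nocodazole cannot be told apart. Whether the 3 replicates of a group came from separate cultures is not in the labels, so the p-values refer to the spread among these libraries alone, and part or all of that spread may be technical.

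Tissue factor is a membrane protein that binds factor VIIa and starts the extrinsic pathway of coagulation, and TFPI shuts that complex off. Tissue-type and urokinase-type plasminogen activators (PLAT and PLAU) cut plasminogen to plasmin, which dissolves fibrin and degrades matrix, and serpins such as SERPINE2 inhibit them. Breast cancer lines of the mesenchymal type are known for making tissue factor and the urokinase system themselves, while most other coagulation factors and plasminogen come from the liver.

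Levels are TPM, transcript levels adjusted for transcript length that sum to 1000000 in each library. How many reads lie behind them is unknown. Each library listed 21292 to 21975 genes above 0. TIS sEV replicate 3 stood apart on 1 measure: over the 3386 genes averaging 50 TPM or more, the SD of its log2 differences from the other libraries had a median of 0.145, against medians of 0.0899 to 0.11 for the other 8. The library weights of limma, taken over all genes tested, did not single it out. They gave it 1.07, and were lowest for Cont sEV replicate 2 (0.734) and TIS sEV replicate 2 (0.764). Each member's differences from TIS sEV are given with and without TIS sEV replicate 3. The line's markers were high (VIM from 2206 to 2299 TPM, CD44 from 428 to 514 TPM, KRT18 and AXL between 278 and 431 TPM), and ESR1, PGR and CDH1 reached no more than 0.577 TPM. ERBB2 was at 26.2 to 30.7 TPM and EPCAM at 21.1 to 25.9 TPM, so these were low but not absent.

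F3 was higher in the cells given TIS sEV than in either other group, at 348 ± 10.7 TPM (SD, n = 3) against 296 ± 4.19 TPM with Cont sEV and 302 ± 6.55 TPM with No sEV. By library, F3 was at 300, 297 and 309 TPM with No sEV, at 291, 299 and 297 TPM with Cont sEV, and at 346, 359 and 338 TPM with TIS sEV. The lowest TIS sEV library lay above every other library, while the No sEV and Cont sEV libraries overlapped. In bulk RNA, more transcript per cell and more cells with the transcript cannot be told apart. F3 (ENSG00000117525.14) lies on the minus strand of chromosome 1, at chr1:94529225-94541800 in GRCh38 by GENCODE 29, and is protein-coding.

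On the scale of log2(TPM + 1), the difference of F3 between TIS sEV and Cont sEV was 0.23 (SE 0.03, 95% confidence interval 0.17 to 0.30), which is 17.6% on the TPM scale. Its limma p adjusted over all genes tested was 0.0252, which is the value F3 was chosen on. Against No sEV the F3 difference was 0.20 (0.14 to 0.27), or 15.1%, with an adjusted p of 0.130 that did not pass 0.05. The difference between Cont sEV and No sEV was -0.03 (-0.095 to 0.035), with an adjusted p of 0.928 (limma). The comparisons share libraries, so they are not independent of each other. F3's difference between TIS sEV and Cont sEV lay between 0.21 and 0.25 in 20 other ways of running the analysis, and its call held in 9 of them. Some of these ways, such as another filter or a No sEV library left out, can change the p-value but cannot move this difference. Without TIS sEV replicate 3 the difference was 0.25, with an adjusted p of 0.0413 by limma, and that against No sEV was 0.22, with an adjusted p of 0.160. The call was lost without No sEV replicate 1 or 3, any 1 of the Cont sEV replicates, or TIS sEV replicate 1 or 2, with adjusted p from 0.0520 to 0.126.

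The stretch before the RefSeq start of F3 is printed because F3 is the member that passed the test. Stretches before the RefSeq starts of TFPI2 and PLAUR stand beside it because they hold the same kind of letters. All 3 are RefSeq sequence in GRCh38.p14, read 5′ to 3′ on the gene's minus strand. Capitals mark matches to the AP-1 motif TGANTCA, the letters bound by Jun and Fos proteins. F3 covers chr1:94541810-94542009, bases -250 to -51 from its RefSeq start, TFPI2 covers chr7:93890823-93890851 (-98 to -70) and PLAUR covers chr19:43670338-43670366 (-197 to -169).
F3: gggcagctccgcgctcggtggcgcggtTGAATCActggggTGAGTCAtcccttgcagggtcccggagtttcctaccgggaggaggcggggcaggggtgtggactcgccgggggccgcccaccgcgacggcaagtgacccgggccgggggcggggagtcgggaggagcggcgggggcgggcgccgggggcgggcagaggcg
TFPI2: gtccccgtgcaTGAATCAgccacccctca
PLAUR: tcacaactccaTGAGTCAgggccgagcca

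Windows of 300 bases around a RefSeq start were found for 6 of the 8 members, 8 windows in all. PLAT and F2R are named only. F3 held 2 AP-1 matches, TGAATCA at -223 and TGAGTCA at -210, while TFPI2 held TGAATCA at -87 and PLAUR held TGAGTCA at -186. TFPI, PLAU and SERPINE2 had none in these windows. Of all 35116 windows of that length, 7.71% held TGANTCA on either strand. The SP1 letters GGGCGG, found in 45.0% of all windows, occurred 4 times in F3, 2 times in TFPI2, 3 times in the second PLAU window, and 1 and 2 times in the first and second SERPINE2 windows. The EGR1 letters GCGNGGGCG, which can overlap those of SP1 and were in 9.43% of all windows, occurred 1 time each in F3, TFPI2 and PLAUR. No member window held the TEAD letters GGAATG (14.0% of all windows) or the searched NF-kB motif (5.68%). The NF-kB search used 1 fixed motif, and sites with other letters were not looked for. It therefore cannot show that F3 or any other member lacks NF-kB sites. The F3 window was 77.3% G and C, the highest of the 8, and that of TFPI 39.3%, the lowest. A match is a description of the letters and no measure of binding. By GENCODE 29 the printed stretches of TFPI2 and PLAUR lie inside the genes, which reach up to bases 93890991 and 43670547. They are thus before the RefSeq start only. That of F3 lies outside the gene, which reaches up to base 94541800. Whether the AP-1 letters bear on the levels was not tested.

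**Figure D1:**
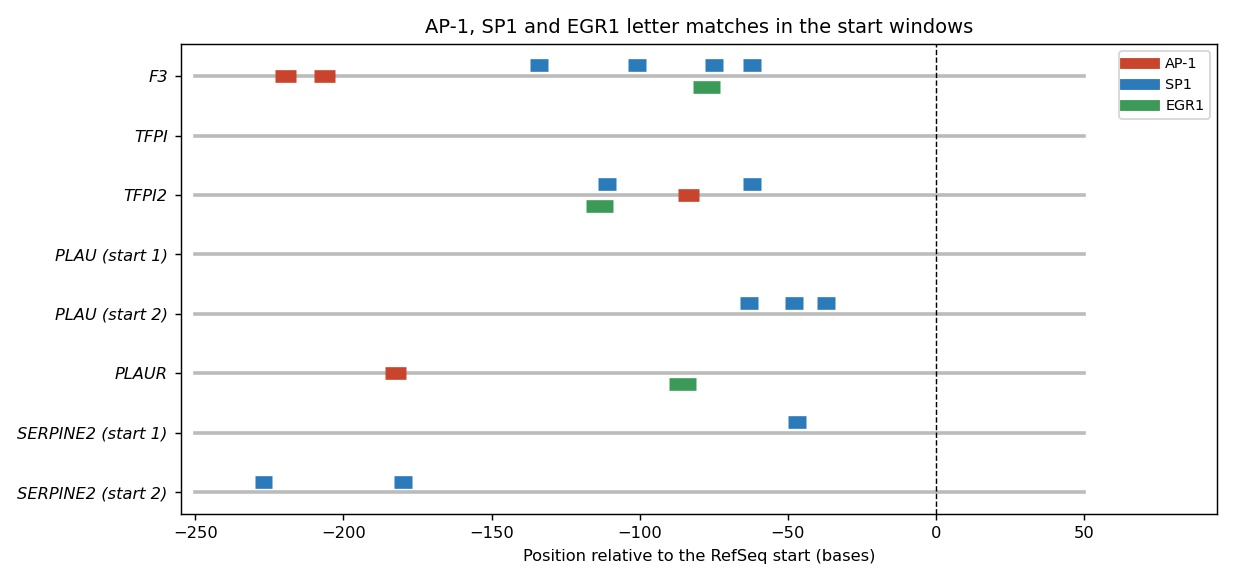
Matches to the AP-1, SP1 and EGR1 letters (colored bars) in the 300 bases around each RefSeq start, for the 6 genes with a window (rows). The x axis is the position in bases from the start (dashed line). F3 carries 2 AP-1 matches, and TFPI2 and PLAUR 1 each.

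TFPI and TFPI2, both Kunitz-type inhibitors, had groups that overlapped in all comparisons. TFPI inhibits factor Xa and the complex of tissue factor with factor VIIa, and TFPI2 is a matrix-associated inhibitor of plasmin and trypsin that inhibits tissue factor only weakly. TFPI was at 89.9, 98.1 and 92.3 TPM with No sEV, at 90.5, 91.6 and 93.8 TPM with Cont sEV, and at 101, 97.4 and 91.8 TPM with TIS sEV. TIS sEV replicate 3 was the lowest of its group and lay among the values of the others. The TFPI difference between TIS sEV and Cont sEV was 0.07 (-0.026 to 0.169) on the log2 scale, and that between TIS sEV and No sEV 0.05 (-0.048 to 0.147). Both depended on single libraries: they were 0.11 and 0.09 without TIS sEV replicate 3, and 0.04 and 0.02 without TIS sEV replicate 1. TFPI lies at chr2:187464230-187565760 on the minus strand (GRCh38, GENCODE 29).

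TFPI2 was at 191, 188 and 179 TPM with No sEV, at 192, 193.5 and 178 TPM with Cont sEV, and at 177, 181 and 180.3 TPM with TIS sEV. It had the lowest mean with TIS sEV, 179 ± 2.01 TPM (SD, n = 3) against 188 ± 8.58 and 186 ± 6.29 TPM with Cont sEV and No sEV, but replicate 3 of each of those groups lay within the range of the TIS sEV libraries. The TFPI2 difference of TIS sEV was -0.07 (-0.150 to 0.019) from Cont sEV and -0.05 (-0.136 to 0.032) from No sEV, and -0.07 and -0.06 without TIS sEV replicate 3. Without Cont sEV replicate 3 the first was -0.10, and without Cont sEV replicate 2 it was -0.04. TFPI2 lies at chr7:93885396-93890991 on the minus strand. Neither inhibitor differed by the test between Cont sEV and No sEV, with differences of -0.02 for TFPI (adjusted p = 0.980, limma) and 0.01 for TFPI2 (adjusted p = 0.983, limma). Within each library, the ratio of F3 to TFPI levels was 3.42, 3.69 and 3.69 with TIS sEV, 3.21, 3.26 and 3.17 with Cont sEV, and 3.34, 3.03 and 3.35 with No sEV. All 3 TIS sEV ratios were above the other 6, and F3, which was chosen on its difference, is their numerator.

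F2R, which encodes the thrombin receptor PAR1, had the lowest level of the 8, between 21.9 and 23.8 TPM in all libraries. F2R was at 22.8, 22.5 and 23.2 TPM with No sEV, at 22.8, 22.3 and 23.2 TPM with Cont sEV, and at 23.8, 23.6 and 21.9 TPM with TIS sEV. The highest and the lowest F2R value were both in the TIS sEV group. Its differences were 0.02 (-0.083 to 0.124) for TIS sEV against Cont sEV and 0.02 (-0.086 to 0.120) for TIS sEV against No sEV. Without TIS sEV replicate 3 they were 0.06 and 0.05, and without TIS sEV replicate 1 they were -0.0005 and -0.0044. Between Cont sEV and No sEV the F2R difference was -0.0039 (-0.107 to 0.099), with an adjusted p of 0.995 by limma. F2R lies at chr5:76716043-76735781 on the plus strand. F2RL1, the related receptor PAR2, which factor VIIa bound to tissue factor can cut, was more abundant at 190 ± 7.10, 192 ± 4.82 and 194 ± 5.37 TPM (SD, n = 3) in the No sEV, the Cont sEV and the TIS sEV group, which overlapped.

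PLAT, tissue-type plasminogen activator, was the most abundant member and the second that was higher with TIS sEV than in both other groups. Its mean was 907 ± 9.0 TPM (SD, n = 3) with TIS sEV, 803 ± 7.14 TPM with Cont sEV and 804 ± 30.96 TPM with No sEV. By library, PLAT was at 817, 768 and 826 TPM with No sEV, at 801, 811 and 797 TPM with Cont sEV, and at 908, 897 and 915 TPM with TIS sEV. The lowest TIS sEV library was above the highest of the other 6, and No sEV replicate 2 was the lowest of all. PLAT lies at chr8:42175233-42207724 on the minus strand (GRCh38, GENCODE 29).

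The PLAT difference was 0.18 (SE 0.03, 0.11 to 0.24) against Cont sEV, or 12.9%, and 0.17 (0.11 to 0.24) against No sEV, or 12.8%. Neither passed, with limma p-values adjusted over all genes of 0.0779 and 0.172. In TIS sEV against Cont sEV, F3 was thus just inside the threshold of 0.05 and PLAT just outside. Without No sEV replicate 2 the limma spread for PLAT was smaller, and PLAT was called against Cont sEV with an unchanged difference of 0.18 and an adjusted p of 0.0267. That was the 1 setting of 20 in which it was. Without TIS sEV replicate 3 the PLAT differences were 0.17 against Cont sEV (adjusted p = 0.239, limma) and 0.17 against No sEV (adjusted p = 0.400, limma). Between Cont sEV and No sEV the PLAT difference was -0.00035 (-0.064 to 0.063), with an adjusted p of 1.00 by limma, so the interval holds no difference of the size seen with TIS sEV.

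PLAU, urokinase-type plasminogen activator, rests on narrow ranges. It was at 224, 222 and 224 TPM with No sEV, at 226, 226 and 229 TPM with Cont sEV, and at 231, 227 and 231 TPM with TIS sEV. Both vesicle groups lay above No sEV without overlap, and they overlapped each other. The PLAU differences from No sEV were small, 3.00% with TIS sEV (0.04 on the log2 scale, -0.008 to 0.093) and 1.82% with Cont sEV (0.03, -0.024 to 0.076, limma adjusted p = 0.911). TIS sEV differed from Cont sEV by 0.02 (-0.034 to 0.067). Without TIS sEV replicate 3 the TIS sEV differences were 0.04 from No sEV and 0.01 from Cont sEV. Under median-of-ratios scaling the difference of TIS sEV from No sEV was 0.0095. PLAU lies at chr10:73909177-73917497 on the plus strand, and 916 of its 2950 exonic bases are shared with C10orf55 on the opposite strand. The strand setting of the quantification is not given in the sources used, so reads over those bases cannot be assigned. C10orf55 was at 0.471 to 0.772 TPM. The ratio of PLAT to PLAU levels was 3.93 to 3.96 with TIS sEV, 3.48 to 3.58 with Cont sEV and 3.47 to 3.69 with No sEV. PLAT, its numerator, was chosen on its rank in TIS sEV against No sEV.

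PLAUR, the cell-surface receptor that holds urokinase at the membrane, was at 168, 162 and 161 TPM with No sEV, at 169.6, 169.8 and 171 TPM with Cont sEV, and at 175, 162 and 166 TPM with TIS sEV. The Cont sEV libraries were close together (SD 0.969 TPM) and all above No sEV, while the TIS sEV libraries spanned both. The PLAUR difference of Cont sEV from No sEV was 0.06 (-0.018 to 0.132), or 4.03%, with an adjusted p of 0.866 by limma. TIS sEV differed from Cont sEV by -0.02 (-0.099 to 0.051) and from No sEV by 0.03 (-0.042 to 0.108). These were -0.02 and 0.04 without TIS sEV replicate 3, and -0.06 and -8e-05 without TIS sEV replicate 1. Without TIS sEV replicate 2 they were 0.00075 and 0.06. PLAUR lies at chr19:43646095-43670547 on the minus strand.

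SERPINE2, protease nexin-1, inhibits thrombin, urokinase and tissue-type plasminogen activator. It was at 41.8, 45.3 and 41.4 TPM with No sEV, at 47.4, 48.7 and 45.4 TPM with Cont sEV, and at 47.8, 46.5 and 44.2 TPM with TIS sEV. Both vesicle groups had higher means than No sEV, but No sEV replicate 2, at 45.3 TPM, nearly met the lowest Cont sEV library and lay within the TIS sEV range. The SERPINE2 difference of Cont sEV from No sEV was 0.14 (0.03 to 0.24), or 10.2%, the largest among the 8 in that comparison. Its limma p was 0.0174 unadjusted and 0.789 adjusted over all genes, so it did not pass. The SERPINE2 difference of TIS sEV from No sEV was 0.11 (-0.0012 to 0.21), and that from Cont sEV was -0.03 (-0.139 to 0.076). Without TIS sEV replicate 3 these were 0.14 and -0.00035. SERPINE2 lies at chr2:223975112-224039319 on the minus strand.

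**Figure D2:**
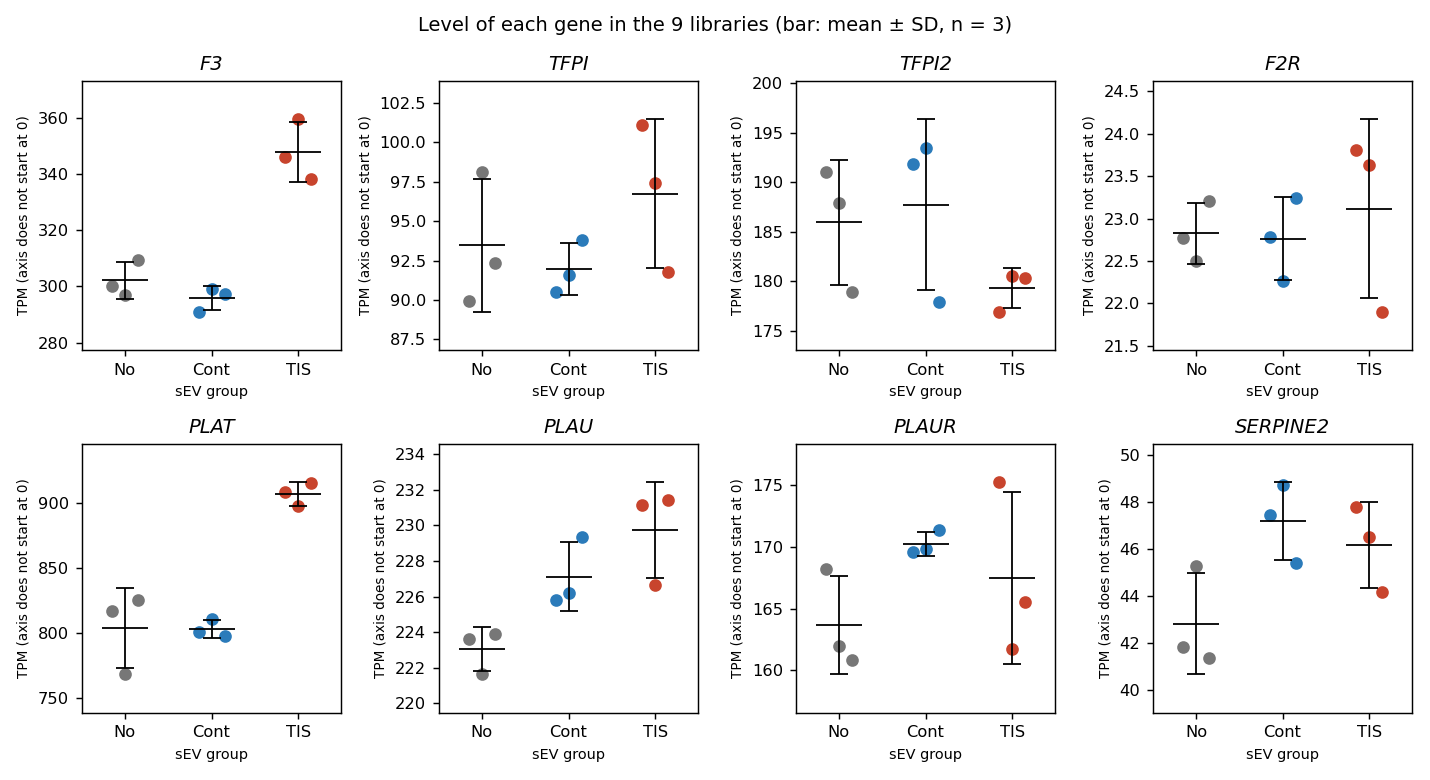
Level of each of the 8 genes in TPM (y axes, which do not start at 0) in the 3 libraries of each group (points, No sEV, Cont sEV and TIS sEV on the x axis), with the mean and SD (bars). For F3 and PLAT all 3 TIS sEV points lie above the other 6, while for TFPI, TFPI2 and F2R the groups overlap.

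All 8 genes are protein-coding, and the order of their levels was the same in all 9 libraries: PLAT, F3, PLAU, TFPI2, PLAUR, TFPI, SERPINE2 and F2R, from highest to lowest. The ranges of neighbours in that order did not overlap. The closest neighbours were TFPI2, whose lowest value was 177 TPM, and PLAUR, whose highest was 175 TPM. PLAT ranked between 160 and 182 among all genes by TPM, and F2R between 5875 and 6178. The highest level over the 9 libraries was 1.04 times the lowest for PLAU, the steadiest member, and 1.23 times for F3, the most variable. The 8 together made up 1988 to 2010 TPM with TIS sEV, 1836 to 1862 TPM with Cont sEV and 1802 to 1856 TPM with No sEV. F3 and PLAT, both chosen on comparisons with TIS sEV, took 62.4% to 63.0% of that sum with TIS sEV and 59.1% to 61.2% in the other 6 libraries. The other 6 members summed to 721 to 756 TPM over all libraries.

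Of the 8 members, 1 (F3, higher) was called between TIS sEV and Cont sEV, where 0.0937% of all genes tested were called. Between TIS sEV and No sEV 0 members were called, against 0.00721% of all genes. An unadjusted p under 0.05 was found for 2 members (F3 and PLAT) in each of these comparisons, and for 10.0% of all genes in the first and 7.97% in the second. Between Cont sEV and No sEV limma called 0 members and 0% of all genes, with 1 member (SERPINE2) and 837 genes (6.03%) at an unadjusted p under 0.05. Groups that did not overlap were found for 2 members (F3 and PLAT) in TIS sEV against Cont sEV, where the share among all genes was 15.4%. They were found for 3 (F3, PLAT and PLAU) in TIS sEV against No sEV, with 14.1% among all genes. In Cont sEV against No sEV they were found for 3 (PLAU, PLAUR and SERPINE2), with 11.2% among all genes. In each of these cases the group named first was the higher. Since the members were chosen with the TIS sEV comparisons known, nothing is read from their shares there.

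The median difference of the 8 members was 0.02 for TIS sEV against Cont sEV, 0.05 for TIS sEV against No sEV and 0.01 for Cont sEV against No sEV, beside medians of 0.02, 0.03 and 0.01 over all genes tested. The difference was positive for 5 of 8 members in TIS sEV against Cont sEV, 7 of 8 in TIS sEV against No sEV and 4 of 8 in Cont sEV against No sEV, and for 4, 5 and 4 under median-of-ratios scaling and 4, 6 and 5 under quantile scaling. Without mitochondrially encoded genes in the total these counts were 5, 7 and 6. F3 and PLAT were higher with TIS sEV under every scaling, and the members whose direction turned had reported differences of at most 0.0328 in size.

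**Figure D3:**
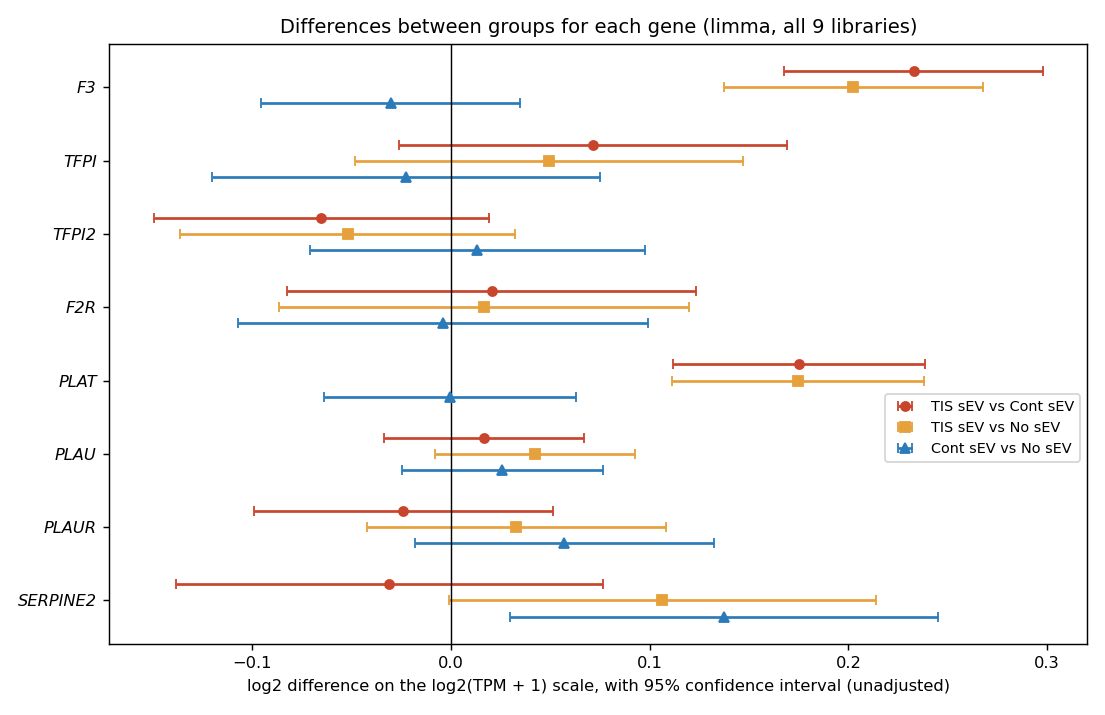
Difference of each gene between groups on the log2(TPM + 1) scale (x axis), with unadjusted 95% confidence intervals from limma, for the 3 comparisons (colors). F3 at 0.23 and 0.20 and PLAT at 0.18 and 0.17 lie to the right of 0 in both TIS sEV comparisons, and the interval of SERPINE2 in Cont sEV against No sEV runs from 0.03 to 0.24.

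Markers of other cells that carry these genes were low. Of 5 endothelial markers, KDR was at 3.85 to 4.73 TPM and PECAM1 at 1.35 to 2.16 TPM, while CDH5, VWF and TEK reached no more than 0.182 TPM. Their summed level, mostly KDR and PECAM1, was 5.66 to 5.89 TPM with TIS sEV, 6.10 to 6.55 TPM with Cont sEV and 6.21 to 6.60 TPM with No sEV. Any relation of this sum to F3 and PLAT was not tested. The 4 line markers VIM, CD44, KRT18 and AXL summed to 3483 to 3541 TPM with TIS sEV, above 3345 to 3413 TPM with Cont sEV and 3359 to 3428 TPM with No sEV, and their part in the F3 and PLAT values was not tested. The summed platelet (4 genes, GP9 at 0 throughout), leukocyte (3), fibroblast (3) and hepatocyte (3) markers overlapped between the groups, and reached 0.810, 4.36, 11.9 and 0.767 TPM at most.

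The coagulation list holds 33 genes chosen by role, 4 of which (F3, TFPI, TFPI2 and F2R) are members. In these cells 27 of the 33 had a value above 0 and 17 were tested. F3 was the 1 gene called in TIS sEV against Cont sEV, the comparison it was chosen on, where 0.0937% of all genes were called. In TIS sEV against No sEV and Cont sEV against No sEV 0 were called, beside 0.00721% and 0% of all genes. Limma gave 2 genes at an unadjusted p under 0.05 in TIS sEV against Cont sEV (10.0% of all genes). It gave 1 in TIS sEV against No sEV (7.97%) and 1 in Cont sEV against No sEV (6.03%). F3 is among them in both TIS sEV comparisons. The 13 tested genes of the list that are not members had 6 higher and 7 lower in TIS sEV against Cont sEV, with a median of -0.0035 beside 0.02 over all genes. They had 9 higher and 4 lower in TIS sEV against No sEV (median 0.02, all genes 0.03), and 6 higher and 7 lower in Cont sEV against No sEV (median -0.0054, all genes 0.01). F7, the partner of tissue factor, was at most 0.0385 TPM, and F9 and F10, which the complex of both activates, were listed at 0 in all 9 libraries. Further down the cascade, F5 was at most 0.0109 TPM and F2 (prothrombin) at most 0.125 TPM, F11 was listed at 0, and F8, the cofactor of factor IX, was at 6.02 to 7.08 TPM.

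Of the coagulation genes beyond the members, those of smallest p had small differences that did not pass. ANXA5, which binds phosphatidylserine and shields it from clotting factors, was at 828 ± 7.14 TPM with No sEV, 793 ± 22.04 TPM with Cont sEV and 825 ± 10.2 TPM with TIS sEV (SD, n = 3). Its Cont sEV libraries lay below the other 6, with differences of -0.06 from No sEV (adjusted p = 0.807, limma) and 0.06 between TIS sEV and Cont sEV (adjusted p = 0.476, limma). P4HB, the protein disulfide isomerase linked to tissue factor activation, was at 769 ± 8.29 TPM with TIS sEV and 743 ± 2.97 TPM with Cont sEV (0.05, adjusted p = 0.569, limma), and at 747 ± 21.9 TPM with No sEV (0.04 lower than TIS sEV, adjusted p = 0.718, limma). F12, a contact-pathway factor, was at 4.60 ± 0.356 TPM with TIS sEV and 3.96 ± 0.178 TPM with Cont sEV (0.17, adjusted p = 0.535, limma), and at 4.21 ± 0.248 TPM with No sEV.

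GGCX, the vitamin K dependent carboxylase of clotting factors, and PROS1, one of its substrates, had lower means with TIS sEV. GGCX was at 36.6 ± 0.378 TPM with TIS sEV and 39.3 ± 3.12 TPM with No sEV, a difference of -0.10 (adjusted p = 0.691, limma). PROS1, the protein C cofactor protein S, was at 13.5 ± 0.406 TPM against 14.6 ± 0.418 TPM, also -0.10 (adjusted p = 0.685, limma). MCFD2, which helps export factors V and VIII, was at 145 ± 0.828 TPM with Cont sEV and 140 ± 1.88 TPM with No sEV (0.04, adjusted p = 0.849, limma). The anticoagulant receptors did not pass either: PROCR, the protein C receptor, had means of 47.4 to 49.4 TPM and THBD, thrombomodulin, of 18.4 to 18.8 TPM over the groups, all overlapping.

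The fibrinolysis list holds 25 genes, among them PLAT, PLAU, PLAUR and SERPINE2. In these cells 23 had a value above 0 and 15 were tested. PLG, plasminogen itself, was at most 0.0937 TPM. Limma called 0 genes of the list in all 3 comparisons, with 7, 4 and 4 genes at an unadjusted p under 0.05 in TIS sEV against Cont sEV, TIS sEV against No sEV and Cont sEV against No sEV, beside 10.0%, 7.97% and 6.03% of all genes. Among the 11 tested genes that are not members, these counts were 6, 3 and 3. PLAT, chosen on a TIS sEV comparison, is in the counts of both TIS sEV comparisons. The list was chosen with earlier results of these data known, so nothing is read from these shares. The 11 tested genes that are not members had 6 higher and 5 lower in TIS sEV against Cont sEV (median 0.06, all genes 0.02). In TIS sEV against No sEV they had 6 higher and 5 lower (median 0.02, all genes 0.03), and in Cont sEV against No sEV 7 higher and 4 lower (median 0.04, all genes 0.01).

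SERPINB2 and THBS1 were among the genes of smallest p in the TIS sEV comparisons. SERPINB2, a serpin that inhibits PLAU, was at 94.5, 94.7 and 88.4 TPM with No sEV, at 101, 102 and 96.8 TPM with Cont sEV, and at 112, 108 and 104.5 TPM with TIS sEV. No pair of SERPINB2 groups overlapped, with differences of 0.11 for Cont sEV from No sEV (adjusted p = 0.796, limma), 0.12 for TIS sEV from Cont sEV (adjusted p = 0.359, limma) and 0.22 for TIS sEV from No sEV (adjusted p = 0.181, limma). THBS1, thrombospondin 1, which binds plasminogen and many matrix proteins, was at 119 ± 1.45 TPM with TIS sEV against 111 ± 3.66 TPM with Cont sEV and 107 ± 0.366 TPM with No sEV (SD, n = 3). Its differences were 0.10 (adjusted p = 0.287, limma) and 0.15 (adjusted p = 0.271, limma).

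In Cont sEV against No sEV, the list genes of smallest p after SERPINE2 and SERPINB2 were SERPINB8 and PLGRKT. SERPINB8, an intracellular serpin, was at 32.0 ± 0.990 TPM with Cont sEV and 28.9 ± 0.803 TPM with No sEV (0.14, adjusted p = 0.804, limma), and at 28.9 ± 2.08 TPM with TIS sEV. Its difference of TIS sEV from Cont sEV was -0.14 (adjusted p = 0.413, limma), with overlapping groups. PLGRKT, a plasminogen receptor, was at 21.8 ± 0.586 TPM with Cont sEV and 24.5 ± 1.33 TPM with No sEV (-0.16, adjusted p = 0.807, limma), and at 24.2 ± 2.22 TPM with TIS sEV. Other cell-surface partners were abundant: ANXA2, which with S100A10 forms a receptor for PLAT and plasminogen, had group means of 2056 to 2141 TPM, S100A10 of 418 to 434 TPM and the plasminogen-binding enolase ENO1 of 3055 to 3172 TPM. Between TIS sEV and Cont sEV, ANXA2 was higher (0.06, adjusted p = 0.466, limma) and ENO1 lower (-0.05, adjusted p = 0.468, limma), both without overlap. The clearance receptors LRP1 and VLDLR, which take up activator-serpin complexes, had means of 10.8 to 12.2 TPM and 11.4 to 12.3 TPM. SERPINI1, neuroserpin, an inhibitor of PLAT, was at 5.99 ± 0.473 TPM with TIS sEV, 6.73 ± 0.394 TPM with Cont sEV and 6.88 ± 0.690 TPM with No sEV, with overlapping groups (SD, n = 3). SERPINF2, the main plasmin inhibitor of plasma, reached no more than 0.944 TPM.

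**Figure D4:**
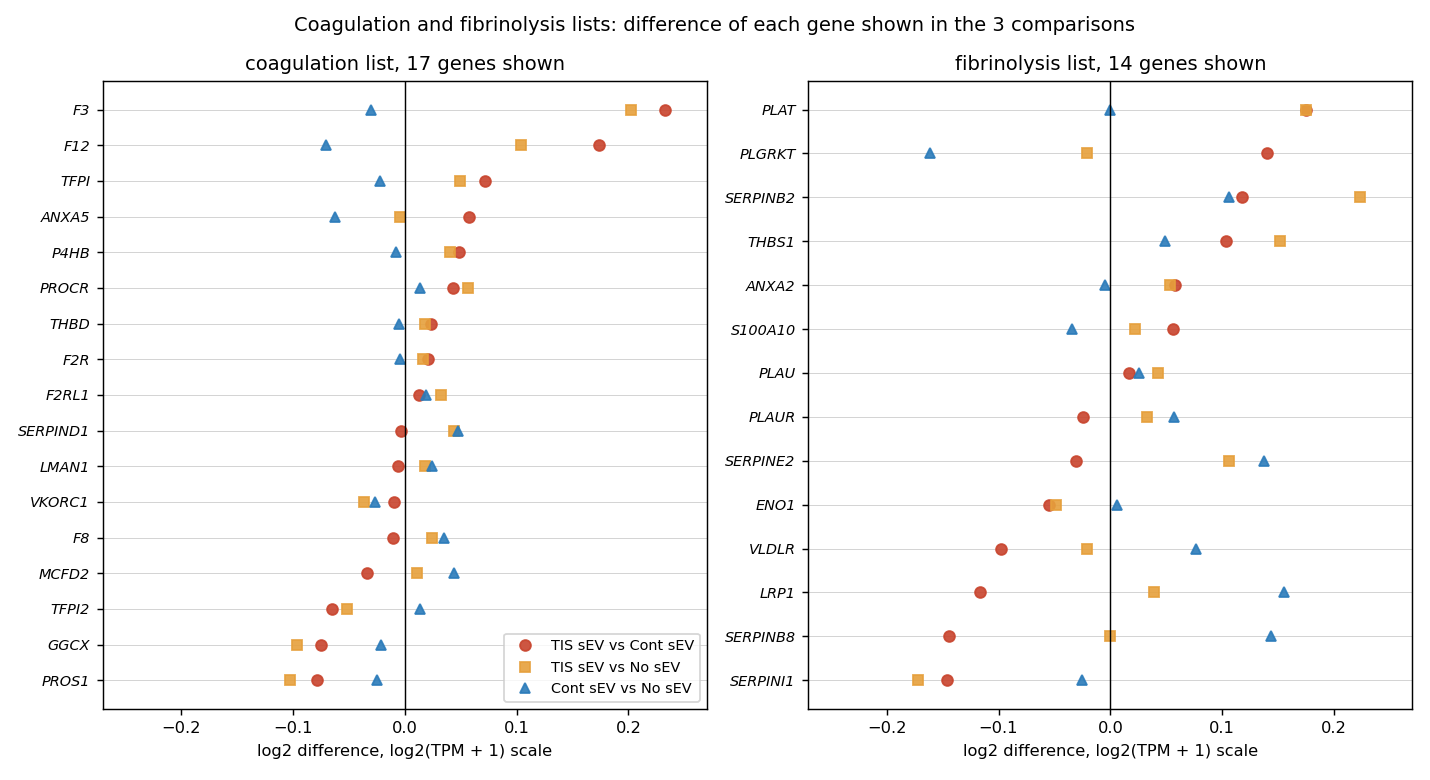
Difference of genes of the coagulation list (left, all 17 tested) and the fibrinolysis list (right, 14 of the 15 tested) on the log2(TPM + 1) scale (x axis) in the 3 comparisons (symbols), ordered by TIS sEV against Cont sEV. F3 and PLAT head the lists, and SERPINB2 has the largest difference of the fibrinolysis list in TIS sEV against No sEV, 0.22.

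Genes whose levels followed F3 were sought among 10482 others with a mean of at least 5 TPM, by Pearson's r of log2(TPM + 1) over the 9 libraries. These correlations are descriptions over libraries that share 3 groups. The 5 highest for F3 were AFG3L2, a mitochondrial protease (r = 0.985), CENPH, a kinetochore protein (0.957), KRTAP2-3, a keratin-associated protein with near-identical relatives whose value is therefore uncertain (0.942), CCN1, a secreted matricellular protein (0.940), and MAOA, monoamine oxidase A (0.939). AFG3L2 was at 67.0 ± 1.34 TPM with TIS sEV, 60.8 ± 0.423 TPM with Cont sEV and 62.0 ± 0.891 TPM with No sEV. CCN1 was at 1740.4 ± 41.6, 1559 ± 30.7 and 1611 ± 45.5 TPM in that order (SD, n = 3). With each group's mean removed, r with F3 was 0.946 for CENPH, 0.822 for AFG3L2, 0.647 for CCN1, 0.639 for MAOA and 0.249 for KRTAP2-3, so the likeness of KRTAP2-3 lay mostly in the group means, where F3's difference had been the basis of its choice. All 5 were picked for a high r over the same libraries, which favours high values after this step too. KRTAP2-3 passed in TIS sEV against Cont sEV (0.51, adjusted p = 0.0343, limma), and the other 4 did not.

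For PLAT the 5 were NEK2, a mitotic kinase (r = 0.975), R3HDM4 (0.962), CEP63, a centrosomal protein (0.957), IFT172, a ciliary transport protein (0.952), and UQCRFS1, a subunit of respiratory complex III (0.946). All 5 had a higher mean with TIS sEV than in both other groups, as did PLAT, on whose pattern they were picked. PLAT had itself been chosen on its rank in TIS sEV against No sEV. Limma called none of the 5 in any comparison. With each group's mean removed, r with PLAT was 0.896 for IFT172, 0.868 for NEK2, 0.741 for UQCRFS1, 0.702 for CEP63 and 0.556 for R3HDM4, values which that choice also favours. F3 and PLAT, both chosen on comparisons with TIS sEV, ranked 13 in each other's list, with r = 0.930. With each group's mean removed, their r was 0.249, so library-to-library deviations within groups were only weakly shared. Other members had a lower r with F3 over the 9 libraries: 0.55 for TFPI and for PLAU, 0.39 for F2R, 0.13 for SERPINE2, -0.09 for PLAUR and -0.62 for TFPI2. After removal of group means, r with F3 was 0.61 for F2R, above that of PLAT. It was 0.16 for TFPI, -0.05 for SERPINE2, -0.31 for PLAU, -0.32 for TFPI2 and -0.37 for PLAUR.

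**Figure D5:**
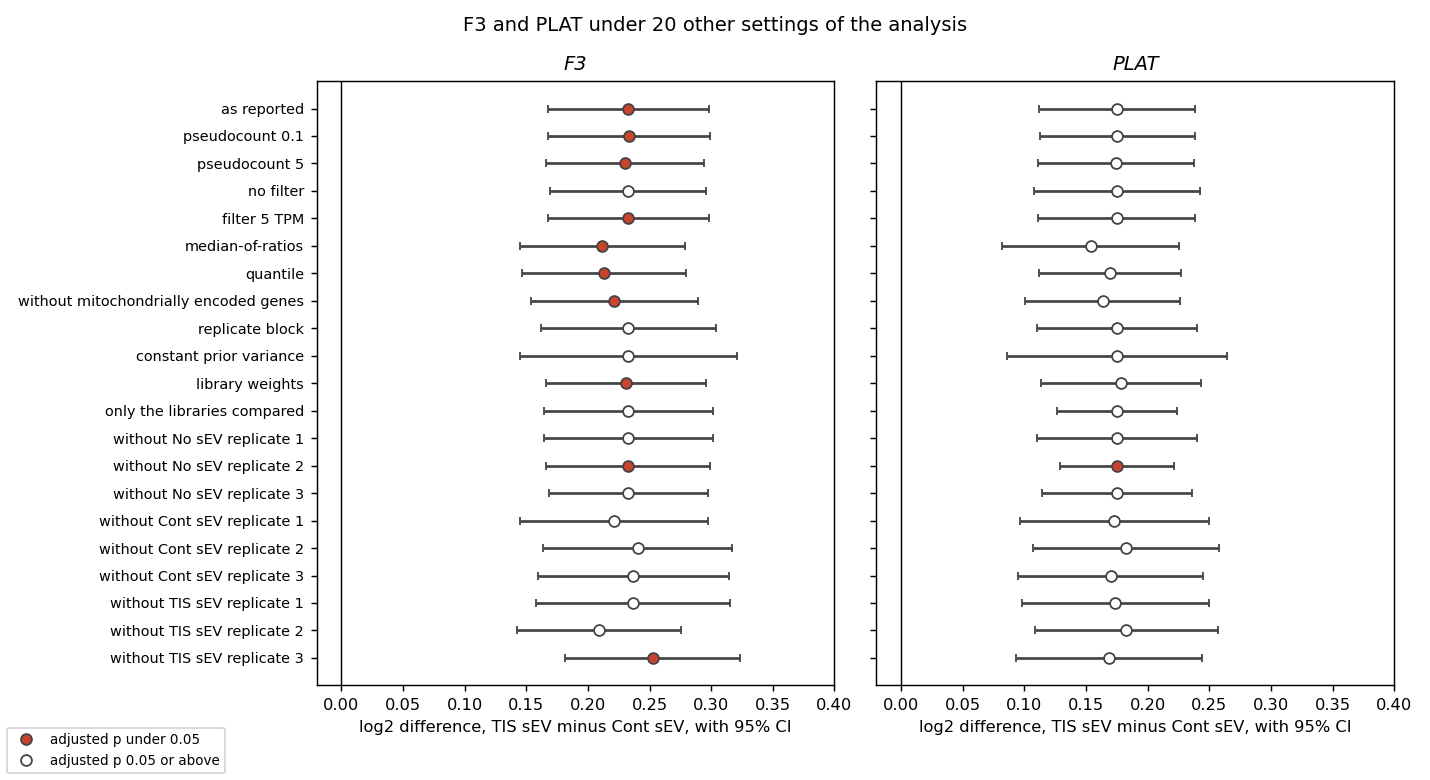
Difference of F3 (left) and PLAT (right) between TIS sEV and Cont sEV on the log2 scale (x axis) with 95% confidence intervals, as reported and in 20 other settings (rows). Filled points have an adjusted p under 0.05, which holds for 9 of the 20 other settings for F3 and 1 for PLAT.

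Members shared few 31-base words with transcripts of other genes read in the same direction. The share of a member's 31-base words also found in transcripts of other genes (GENCODE 29) ran from 0% for TFPI2 and PLAU to 5.07% for F3. That search did not look at the opposite strand, so the 0% of PLAU leaves out its overlap with C10orf55. Exonic overlap with a gene on the opposite strand was found for TFPI (118 bases), TFPI2 (44 and 79 bases), F2R (39 bases) and PLAU, as given above.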

How the data were processed

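Total RNA from 9 libraries of MDA-MB-231 cells was analysed as gene-level TPM, which the authors deposited in 1 table of 60719 genes. The submitters' processing notes name Salmon 1.4.0, DESeq2 1.28.0, Trim Galore 0.6.6 and FastQC 0.11.9 and the build GRCh38.p13. No annotation release is given in the sources used. TPM keep no read depth, so no count model was used. Groups came from the labels. Values were transformed to log2(TPM + 1), which understates changes of low genes, and 13879 genes that reached 1 TPM in 3 or more libraries were kept. All 9 libraries entered 1 fit with limma 3.58.1 (R 4.3.3) with the prior variance following expression, and two-sided p-values received a Benjamini-Hochberg adjustment over the tested genes of a comparison, with 0.05 as the threshold. Confidence intervals are unadjusted.

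The members, the 2 pathway lists and the tests were chosen with earlier results of these data known. Genes named were all 8 members, list genes called, up to 4 genes per list and comparison of smallest unadjusted p, other receptors, inhibitors and cofactors of the members, and the 5 genes of highest Pearson's r with F3 and with PLAT. F7, F5, F2, F8, F9, F10, F11, SERPINF2 and PLG were named after their values were seen. Gene symbols were matched by Ensembl ID for 99.58% of genes, positions came from GENCODE 29, and promoter windows from RefSeq (GRCh38.p14). Alternatives were other pseudocounts (0.1 and 5), filters and scalings, TPM without mitochondrially encoded genes, library weights, a replicate block, a prior variance held constant, a fit of the compared groups alone, and each library left out. A gene of the fibrinolysis list that entered the tests and counts is not reported here. The steps were tested on simulated data.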

Additional observations from a re-analysis of the deposited data

How the results depend on the processing

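The count of members called in TIS sEV against Cont sEV, 1 (F3), became 0 with no filter, with the replicate block, with a constant prior variance and with only the libraries compared, and 0 to 2 with each library left out in turn. The count for the coagulation list, also 1, became 0 in the same 4 settings and 0 to 1 with a library left out, and that for the fibrinolysis list, 0, became 0 to 1. F3's difference was 0.23 in those 4 settings, which cannot move it, with adjusted p of 0.0525, 0.0578, 0.176 and 0.0658 (limma). The cause was not tested. Whether same-numbered libraries share a culture or a day is not in the labels. Correlations of their deviations from group means were -0.0574 to 0.140, with 1 of 9 over 0.1. Those between differently numbered libraries were -0.194 to 0.205. Deviations within a group sum to 0, so these values cannot settle whether the samples are paired. Beyond F3, whose call was lost, the replicate block changed no member's call. In the other comparisons 0 members were called in all 20 settings. Over all genes, calls in TIS sEV against Cont sEV numbered 13 (6 higher, 7 lower) and 2 to 17 across settings, and 14 (3 higher, 11 lower) under median-of-ratios scaling and 17 (6 higher, 11 lower) under quantile scaling. They numbered 1 and 0 to 9 in TIS sEV against No sEV, and 0 and 0 to 7 in Cont sEV against No sEV. Of 480 member differences recomputed, 22 changed sign, all with reported differences of at most 0.0328 in size. Many of the 480 could not move, so 22 of 480 is no measure of stability. Other filters, the replicate block, the constant prior variance and the fit of the compared groups alone leave a difference as it is. So does leaving out a library of the group not compared. Depth is unknown, and differences of the smaller members' size lie within the confidence intervals of 3 libraries a group.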
